A study of Homo sapiens with 12 samples.

Results

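Transcript levels were compared between MDA-MB-231 cells given either of a pair of isomiRs of miR-183-5p, the plus2 isomiR and the minus2 isomiR. The labels' titles and treatments chose the arrays, 3 for plus2 and 3 for minus2, which are 6 of the 12 arrays in the series. MDA-MB-231 is a widely used cell line from a human triple-negative breast cancer. An isomiR is a form of a microRNA whose ends are shifted along the same precursor. The 4 groups were cells given the plus2 mimic (both ends shifted by +2), the minus2 mimic (both ends shifted by -2), the archetype mimic with the annotated ends, or a negative control oligonucleotide. All of them were transfected at 50 nM for 48 h, and each group had 3 arrays. The series description writes the ends of the minus2 form as 2 and -2, whereas the labels of its samples and its stated sequence give -2 for both, and these were followed. The labels do not tell whether the 3 arrays of each group stem from cultures grown apart, and the p-values therefore reflect array-to-array spread that could be technical only.

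A microRNA guides an Argonaute protein to messenger RNAs, mostly through pairing of its seed, nucleotides 2 to 8 from the 5′ end, with sites in the 3′ untranslated region. Transcripts with such sites are translated less and degraded faster, so a shift of the 5′ end changes which transcripts can pair with the seed. miR-183-5p belongs to a conserved cluster of microRNAs known from sensory organs, and it is often abundant in breast tumours. The comparison asks how far transcript levels differ between cells given forms whose seeds lie at opposite sides of the annotated one.

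The sequences are shown because the seed, in capitals, is what sets the mimics apart. The first pair are the mimics as the labels give them, written as DNA, and the third is the mature microRNA from RefSeq (GRCh38.p14, chr7:129774967-129774988, minus strand).
plus2: tGGCACTGgtagaattcactgt
minus2: tGTATGGCactggtagaattca
hsa-miR-183-5p: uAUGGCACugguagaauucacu
Each is 22 nucleotides long. The plus2 and minus2 mimics are offset by 4 nucleotides and share 18. The plus2 seed GGCACTG pairs with CAGUGCC in a transcript, and the minus2 seed GTATGGC pairs with GCCAUAC. The end of the minus2 seed and the start of the plus2 seed have 3 bases in common. No mature human microRNA among 2370 names in the RefSeq table has either isomiR's seed.

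The values are log2 signals, and those of different genes are not compared with each other. Replicate arrays correlated across genes with Pearson's r between 0.9971 and 0.9977 for plus2 and between 0.9984 and 0.9988 for minus2; genes are not independent in this measure. The SD among replicate arrays had a median of 0.0827 log2 units for plus2 and 0.0576 for minus2. Of the markers of the labelled line, the mesenchymal VIM averaged 13.59 with plus2 and 13.69 with minus2, and CD44, AXL, CAV1, EGFR and MSN were also above the limit for testing. EGFR and MSN differed between the isomiRs and are given below. The hormone receptor genes ESR1 (4.16 and 4.19) and PGR (3.72 and 3.77) were below it, at 4.54, and ERBB2 had no feature with that symbol alone. The epithelial genes CDH1 and EPCAM, also listed as low in this line, were above the limit and are given with the junction genes. Of 14 white blood cell genes on the array, 4 were below it (PTPRC, CD3D, MS4A1 and CD53) and 10 were tested, while of 9 fibroblast genes 6, among them DCN, LUM, PDGFRA and FAP, were below it and 3 were tested.

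Large parts of the transcriptome differed between the isomiRs. Of 14940 genes tested with limma at a Benjamini-Hochberg adjusted p of 0.05, 5787 (38.7%) were called, of which 2659 (17.8%) were higher and 3128 (20.9%) lower with plus2. Among 12217 tested protein-coding genes the share called was 44.4%. Most of these differences were small. The median size of a called difference was 0.315 log2 units, and the smallest was 0.098. A difference of at least 1.5-fold was called for 962 genes (6.44%), 453 higher (3.03%) and 509 lower (3.41%). At least 2-fold differences were called for 111 genes higher and 89 lower with plus2, and at least 3-fold ones for 15 and 12. The median difference over all genes was -0.01. Which direction held more calls depended on the scaling, with 2940 genes higher and 2966 lower after each array was centred on its median, and 2937 higher and 2868 lower after a further quantile normalisation.

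The 3 plus2 arrays lay wholly above or below the 3 minus2 arrays for 7146 genes (47.8%). Of the called genes, 5661 had arrays that did not overlap and 126 had arrays that did. The share called was 57.3% in the brightest of 3 equal groups of genes by mean signal, 43.7% in the middle group and 15.1% in the dimmest. Dim genes were thus called less often, and signals near 4.54 are not shown to be above background. The array's 23 background features had a median of 3.24 and a highest value of 7.31, so signals below 7.31 lie within their range. In the brightest group of 4980 genes, 1142 were higher and 1713 lower with plus2. The shares of all genes set beside the lists below include the dim genes, so they are a low mark for lists of bright genes. Lists with a median signal above 8.51 compare better with the 57.3% called in the brightest group. Those between 6.07 and 8.51 compare better with the 43.7% of the middle group.

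**Figure D1:**
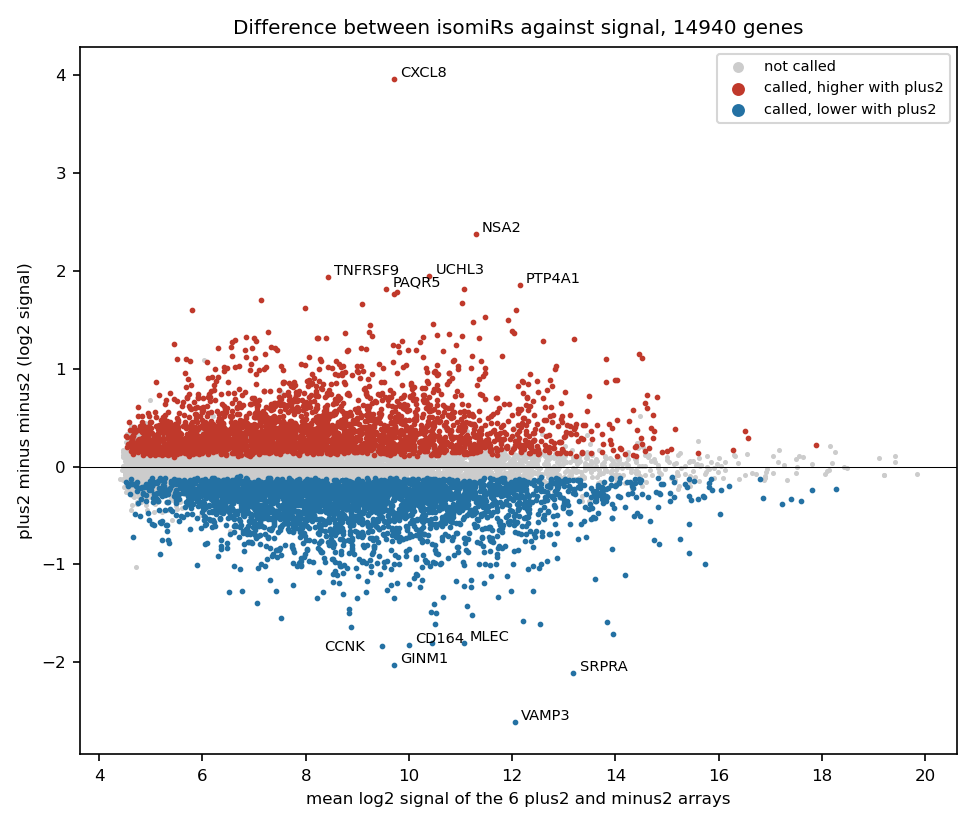
Each point is 1 of 14940 genes, placed by its mean log2 signal over the plus2 and minus2 arrays (horizontal) and its difference, plus2 minus minus2, in log2 signal (vertical). Red and blue mark genes called higher and lower with plus2, grey those not called; CXCL8 stands at 3.96 and VAMP3 at -2.61, beyond all other genes.

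CXCL8, which encodes the neutrophil chemokine interleukin-8, had the largest difference of any gene. Its log2 signal was 11.76, 11.54 and 11.75 on the plus2 arrays, against 7.83, 7.68 and 7.66 on the minus2 arrays. The archetype arrays averaged 9.97 and the control arrays 9.66, between the isomiRs. The difference between plus2 and minus2 was 3.96 ± 0.06 (SE), or 15.6-fold, with an adjusted p of 1.1e-11 by limma.

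NSA2, a factor of ribosome assembly, was next among the higher genes. Its signal was 12.53, 12.42 and 12.51 with plus2, against 9.98, 10.10 and 10.23 with minus2, a difference of 2.38 ± 0.07. The control mean of 12.35 was close to the plus2 arrays, so here it was the minus2 arrays that stood apart. UCHL3, which encodes a ubiquitin hydrolase, showed the same arrangement, with 11.37 ± 0.07 for plus2, 9.42 ± 0.07 for minus2 (SD, n = 3 each) and 11.67 in control. The autophagy receptor NCOA4, which delivers ferritin to the lysosome, averaged 12.88 ± 0.05 with plus2, 11.28 ± 0.06 with minus2 and 12.96 in control.

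Other genes among the 15 largest positive differences encode proteins with varied roles. TNFRSF9, a costimulatory receptor of the TNF receptor family, was 3.82-fold higher with plus2, and the phosphatase gene PTP4A1 3.62-fold. The membrane progestin receptor gene PAQR5, the lysosome-related organelle gene HPS3 and the phosphodiesterase gene GDE1 were 3.53-, 3.52- and 3.45-fold higher. CST7, an inhibitor of cysteine proteases, the cytochrome gene CYP2S1, the kinesin subunit KIF3B, the signalosome subunit COPS8 and TCP11L2 were 3.07- to 3.41-fold higher. For TCP11L2 the plus2 arrays spread widely (8.73, 8.45 and 9.20), yet all lay above the minus2 arrays (7.32, 6.98 and 7.21). The actin-like gene ACTBL2 was also higher, by 1.60 ± 0.15, but its minus2 mean of 4.99 was near the limit for testing. Adjusted p was at most 1.5e-05 over these 15 genes (limma).

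VAMP3, a vesicle SNARE of recycling endosomes, had the largest negative difference. Its signal was 10.69, 10.82 and 10.72 with plus2, against 13.35, 13.35 and 13.36 with minus2. The plus2 arrays were 6.10-fold below the minus2 arrays, a difference of -2.61 ± 0.05 with an adjusted p of 5.2e-11 (limma), while the control mean was 13.10. SRPRA encodes the alpha subunit of the receptor that brings nascent secretory proteins to the endoplasmic reticulum. It had 12.14, 12.10 and 12.15 with plus2, against 14.26, 14.24 and 14.22 with minus2, and the control mean of 13.04 lay between these groups.

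The membrane protein gene GINM1 was 4.08-fold lower with plus2, CCNK, the cyclin partner of transcriptional kinases, 3.57-fold, and the sialomucin gene CD164 3.55-fold. MLEC, a lectin of the endoplasmic reticulum, and HBEGF, a ligand of the EGF receptor, were 3.50- and 3.49-fold lower. MSN encodes moesin, which ties actin filaments to the plasma membrane, and averaged 13.10 ± 0.03 with plus2 and 14.80 ± 0.05 with minus2 (SD, n = 3 each), both below the control mean of 15.31. MAVS, the mitochondrial adaptor of RNA sensing, was 3.11-fold lower with plus2. EIF4EBP2, an inhibitor of cap-dependent translation, and the G protein subunit gene GNA11 were each 3.04-fold lower. TMBIM6, a suppressor of cell death in the endoplasmic reticulum, the decay cofactor gene PNRC2, the methionine cycle gene MTRR and the chromosome condensation gene RCC2 were 3.01- to 2.87-fold lower. Adjusted p was at most 8.9e-08 over these 15 genes (limma).

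The control arrays help to place these differences, as a description without a test. Among the 15 genes highest with plus2, the control mean was nearer to plus2 for 11 and nearer to minus2 for 4. Among the 15 lowest, it was nearer to plus2 for 2 and nearer to minus2 for 13.

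**Figure D2:**
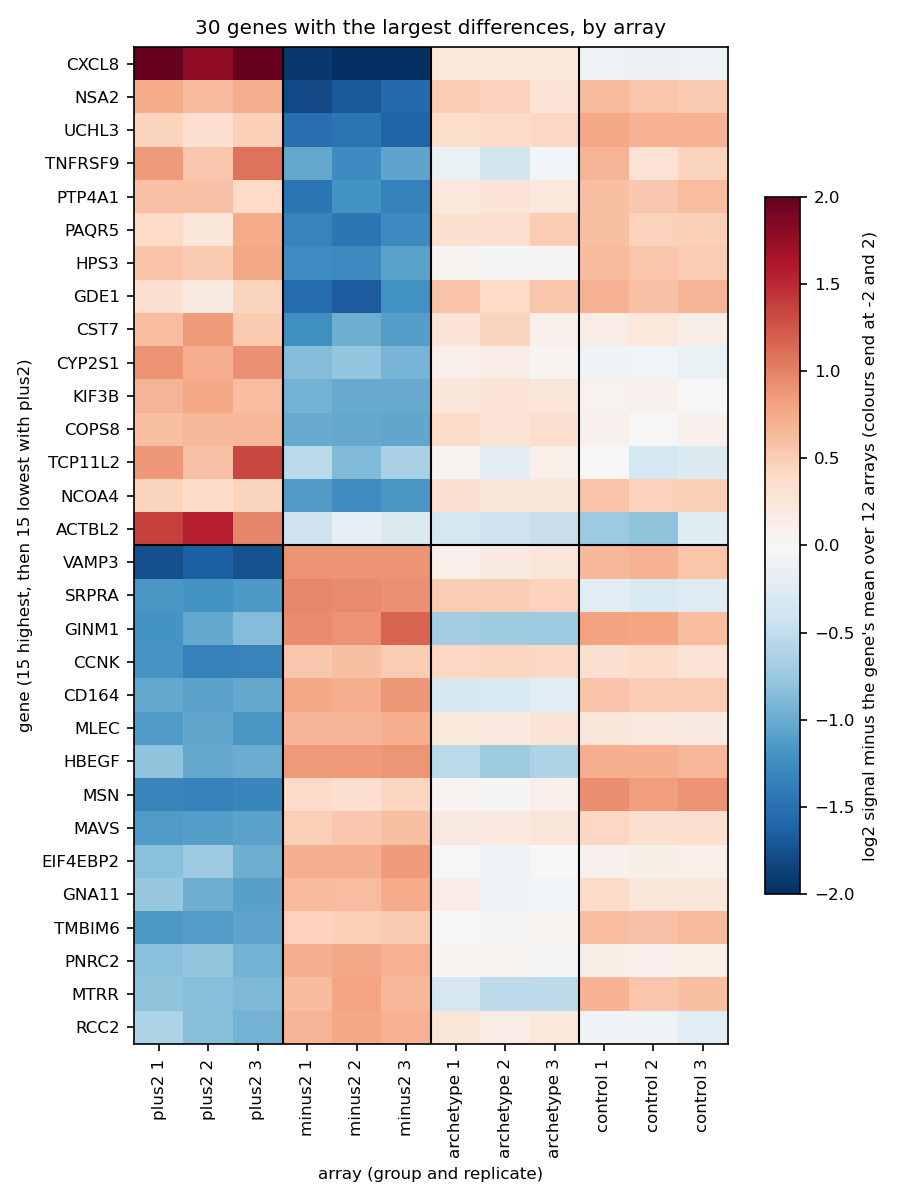
Colour gives each array's log2 signal minus the gene's mean over 12 arrays, for the 15 genes highest and the 15 lowest with plus2 (rows) on the 3 arrays of each group (columns: plus2, minus2, archetype, control). In each row the plus2 and minus2 arrays have opposite colours; the control arrays resemble plus2 for NSA2 and UCHL3 and minus2 for VAMP3 and GINM1.

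Most tested genes of NF-kB signalling and inflammatory cytokines were higher with plus2. NF-kB is a family of transcription factors held in the cytoplasm by inhibitors such as NFKBIA until a signal releases them, after which they activate chemokine, cytokine and adhesion genes along with their own inhibitors. Of 21 tested members of this list, 16 were higher with plus2 (76.2%, against 17.8% of all genes), 1 was lower (4.76%, against 20.9%) and 4 were not called. Like the other lists, this list was chosen with earlier results of these data known, so its shares are a description only. The list's median difference was 0.72, beside -0.01 for all genes, and stayed between 0.66 and 0.78 under every alternative setting run. PTGS2 was below the limit for testing, and CSF2, BIRC3 and SOD2 had no feature with a single symbol.

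Among the secreted ligands, the neutrophil chemokine genes CXCL1 and CXCL2 were higher with plus2 by 1.29 ± 0.09 and 1.03 ± 0.10. CXCL1 had 7.87, 7.60 and 7.57 with plus2, against 6.29, 6.37 and 6.52 with minus2. CXCL1, CXCL2 and CXCL3 are close copies, and probes may not tell their transcripts apart. CXCL3 was near the limit for testing and higher by 0.20 ± 0.05. The cytokine gene IL6 had 7.97, 7.73 and 7.68 with plus2, against 6.67, 6.71 and 6.53 with minus2, a difference of 1.16 ± 0.08. CCL20, which attracts immature dendritic cells and lymphocytes, was higher by 0.72 ± 0.08, and the monocyte chemokine gene CCL2 by 0.87 ± 0.15 at a minus2 signal of 4.67.

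IL1B, a main inflammatory cytokine, was more variable. It had 10.29, 9.75 and 11.16 with plus2, against 9.37, 8.89 and 9.42 with minus2, so the groups did not overlap but plus2 replicate 3 stood high. Replicate 2 was lowest and replicate 3 highest in all 4 groups, with 8.57 and 9.20 in archetype and 9.42 and 9.84 in control. The difference of IL1B was 1.18 ± 0.30 (adjusted p = 0.0081, limma). Its relative IL1A was the called member in the other direction, at -0.35 ± 0.10 (adjusted p = 0.017), and that call was lost without minus2 replicate 1, minus2 replicate 3 or plus2 replicate 2, at -0.26 to -0.34. LIF, CSF3 and IL11 were not called, with differences of -0.06 ± 0.10, -0.24 ± 0.12 and -0.22 ± 0.09. However, IL11 was called lower without plus2 replicate 3, after quantile normalisation and with array weights. CSF3, whose plus2 arrays all lay below its minus2 arrays, was called lower in the fit on the 6 arrays alone.

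Among the surface and intracellular members, ICAM1, an adhesion molecule for leukocytes, had 12.02, 11.84 and 12.19 with plus2, against 10.81, 10.47 and 10.81 with minus2. Its difference was 1.32 ± 0.12. TNFAIP3, the A20 enzyme that ends NF-kB signalling, had 9.24, 9.02 and 8.90 with plus2, against 7.76, 7.63 and 7.82 with minus2, a difference of 1.32 ± 0.09. TNFAIP2 was higher by 1.01 ± 0.09. The inhibitor gene NFKBIA was higher by 0.85 ± 0.08, and the inhibitor-like NFKBIZ by 0.28 ± 0.07. Of the NF-kB subunits themselves, NFKB2 was higher by 0.60 ± 0.06 and NFKB1 by 0.47 ± 0.08. RELB was higher by 0.16 ± 0.05, which did not hold without minus2 replicate 2, minus2 replicate 3, plus2 replicate 1 or plus2 replicate 2. RELA was not called, at -0.02 ± 0.05.

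The control mean lay between the isomiRs for 13 of the 16 higher members, nearer to plus2 for 10 of the 16 and nearer to minus2 for 6. IL6, for example, averaged 7.21 in control, and TNFAIP3 8.16.

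**Figure D3:**
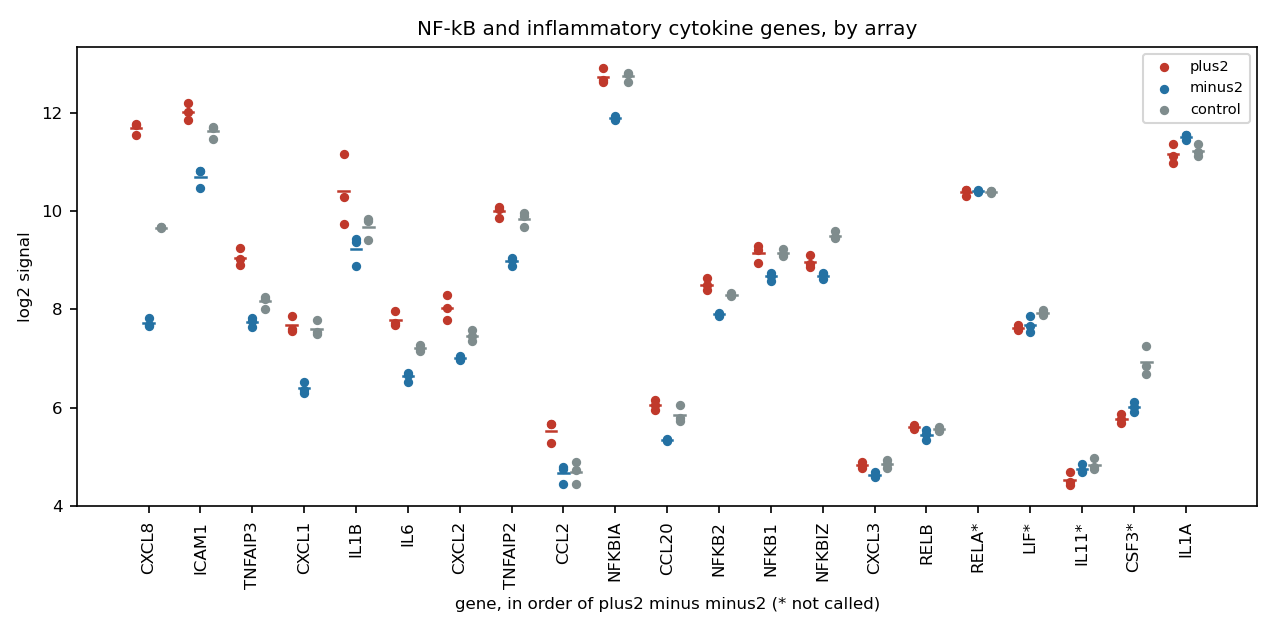
Points are log2 signals (vertical) of single arrays and short lines the group means, for plus2 (red), minus2 (blue) and control (grey), 3 arrays each, for 21 genes of NF-kB signalling and cytokines ordered by the difference plus2 minus minus2. The red points of CXCL8 lie between 11.54 and 11.76 and the blue ones between 7.66 and 7.83; genes marked with an asterisk were not called.

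The promoters of these genes were searched because the list is defined by a transcription factor with a known DNA motif. The motif used was GGNNTTTCC, on both strands, in the 250 bases before any of a gene's starts in the RefSeq promoter table (GRCh38.p14), and matches on opposite strands may overlap. This motif was chosen after these promoters had been looked at, so a higher share in them than in other genes may stem from that choice. The shares that follow are therefore a description and no evidence of enrichment, and they do not bear on plus2 against minus2. Matches were counted once per gene. The motif occurs in 13 of the 17 list promoters present in the table (76.5%), against 7.86% of 10718 tested genes with a promoter in the table and 6.69% of all 27305. A match is a run of letters and not a site known to be bound, and the promoters of IL1A, IL1B, IL11 and RELA hold none in this window. NFKB2, which is counted as holding it, has none at the first of its 3 listed starts and a match at the other 2. Stretches of 60 bases around the match nearest the start are given for 6 members with the largest differences that have a match, with motifs in capitals.
CXCL8 (chr4:73740453-73740512, plus strand): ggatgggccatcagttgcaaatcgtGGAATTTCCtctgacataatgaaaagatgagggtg
ICAM1 (chr19:10270909-10270968, plus strand): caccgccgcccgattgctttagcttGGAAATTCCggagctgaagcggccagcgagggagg
TNFAIP3 (chr6:137867179-137867238, plus strand): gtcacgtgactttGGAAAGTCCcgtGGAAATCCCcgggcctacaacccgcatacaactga
CXCL1 (chr4:73869315-73869374, plus strand): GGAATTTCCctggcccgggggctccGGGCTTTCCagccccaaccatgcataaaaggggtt
IL6 (chr7:22727103-22727162, plus strand): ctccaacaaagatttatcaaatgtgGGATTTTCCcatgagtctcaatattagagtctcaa
CXCL2 (chr4:74099214-74099273, minus strand): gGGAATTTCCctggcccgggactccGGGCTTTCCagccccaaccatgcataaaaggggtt
The first motif base lies 91 bases before the start in CXCL8 and 72 in IL6, and the nearest match begins 53 bases before it in both CXCL1 and CXCL2.

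Genes reported as miR-183-5p targets in earlier work differed in both directions. Of 20 tested, 9 were higher (45%) and 5 lower (25%) with plus2, beside 17.8% and 20.9% of all genes, and the median difference was 0.01. The Wnt co-receptor gene LRP6 had 10.49, 10.50 and 10.42 with plus2, against 9.45, 9.40 and 9.43 with minus2, a difference of 1.04 ± 0.04. The transcription factor EGR1 was higher by 1.21 ± 0.09, the PP2A catalytic subunit PPP2CB by 0.73 ± 0.04 and the ubiquitin ligase subunit BTRC by 0.70 ± 0.04. IRS1, an adaptor of the insulin receptor, differed by -0.68 ± 0.09 and the chromatin gene MTA1 by -0.58 ± 0.05. The tumour suppressor RB1 and ezrin, EZR, were lower as well, by -0.51 ± 0.06 and -0.43 ± 0.06. ITGB1, the integrin beta-1 subunit, was not called between the isomiRs: it averaged 14.13 with plus2 and 14.11 with minus2, both below the control mean of 15.70, and its difference was 0.02 ± 0.04. IDH2, SMAD4 and PFN2 had small positive differences (0.14 to 0.17) and BNIP3L a small negative one (-0.14 ± 0.04), and each of these 4 lost its call in at least 1 alternative.

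Growth factor pathways held called genes in both directions. TGF-beta ligands bind a pair of receptor kinases that phosphorylate SMAD proteins. Of 24 tested genes of this pathway, 13 were higher (54.2%, against 17.8% of all genes) and 2 lower with plus2 (8.33%, against 20.9%), with a median of 0.23 beside -0.01 for all genes. The ligand gene TGFB2 had 13.16, 13.29 and 13.25 with plus2, against 11.95, 11.94 and 11.98 with minus2, and 11.02 in control. The receptor gene TGFBR2 had 11.70, 11.70 and 11.69 with plus2, against 10.33, 10.38 and 10.38 with minus2, and 11.52 in control. For TGFB2 the minus2 arrays were thus nearer to control, whereas for TGFBR2 the plus2 arrays were. Their differences were 1.28 ± 0.05 and 1.33 ± 0.04. SMAD3, a signal transducer, was higher by 0.57 ± 0.06 and LTBP1, which holds latent TGF-beta in the matrix, by 0.50 ± 0.07. The lower pair were the ubiquitin ligase SMURF2 (-0.48 ± 0.05) and the receptor kinase TGFBR1 (-0.44 ± 0.05), so the genes of the receptor pair lay on opposite sides.

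In the EGF receptor family, 4 of 9 tested genes were higher with plus2 and 2 lower, 66.7% called against 38.7% of all genes. The list's median signal was 8.81 with plus2, and the brightest group of genes had 57.3% called. EGFR itself had 11.86, 11.81 and 11.76 with plus2, against 10.89, 10.88 and 10.97 with minus2, a difference of 0.89 ± 0.05. Among its ligands, HBEGF had 9.68, 9.46 and 9.49 with plus2, against 11.33, 11.34 and 11.37 with minus2, and TGFA differed by -0.41 ± 0.05. HBEGF and TGFA thus differed in the direction opposite to EGFR, whereas the ligand genes named next were higher, as EGFR was. EGF was higher by 0.47 ± 0.04 at a low signal of 5.00 with minus2. The ligand genes NRG1 (0.37 ± 0.08) and BTC (0.36 ± 0.07) were the other higher members.

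Of 23 tested MAPK and immediate-early genes, 4 were higher and 6 lower with plus2, and the 43.5% called is close to the 38.7% of all genes. FOSL1, a subunit of the AP-1 transcription factor, differed by -0.98 ± 0.07. SPRY4, a feedback inhibitor of ERK signalling, and ETV4, a transcription factor downstream of it, differed by -0.96 ± 0.09 and -0.91 ± 0.07. EGR1, an early response gene, was higher, as given above, along with the AP-1 family genes FOSL2 (0.48 ± 0.07) and ATF3 (0.47 ± 0.07) and with SPRY2 (0.24 ± 0.07), whose call was lost without minus2 replicate 1 or minus2 replicate 3.

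Of 28 Wnt pathway genes, 8 were higher (28.6%) and 6 lower (21.4%) with plus2, beside 17.8% and 20.9% of all genes. Besides LRP6, the receptor gene LGR4 was higher by 0.82 ± 0.07, while the Frizzled receptor FZD6 differed by -0.99 ± 0.07. In the YAP and TAZ pathway, 7 of 21 genes were higher (33.3%) and 9 lower (42.9%). The target gene ANKRD1 had 14.20, 14.46 and 14.66 with plus2, against 13.54, 13.61 and 13.52 with minus2, and was higher by 0.88 ± 0.10. The coactivator YAP1 itself (-0.62 ± 0.05), the kinase activator MOB1B (-0.69 ± 0.07) and the target gene CCN2 (-0.61 ± 0.11) were lower.

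Insulin and PI3K genes numbered 21, of which 6 were higher (28.6%) and 4 lower (19%), beside 17.8% and 20.9% of all genes. Besides IRS1, the growth kinase MTOR differed by -0.65 ± 0.06, and the receptor gene IGF1R by 0.33 ± 0.06. The other lower members were PIK3R1 (-0.30 ± 0.07) and EIF4EBP1 (-0.28 ± 0.06). IRS2 was called at 0.38 ± 0.14 but not without plus2 replicate 3, where it was 0.20, nor without plus2 replicate 1 or without minus2 replicate 1 or minus2 replicate 3. PP2A, a major serine and threonine phosphatase, is built from scaffold, catalytic and regulatory subunits, and 7 of 22 of its genes were higher (31.8%) and 6 lower (27.3%). PPME1, the enzyme that demethylates and holds the catalytic subunit inactive, had 11.47, 11.59 and 11.29 with plus2, against 10.00, 10.18 and 10.10 with minus2. Its difference was 1.36 ± 0.08. The scaffold subunit PPP2R1B (-0.81 ± 0.05) and the striatin STRN4 (-0.53 ± 0.05) were lower with plus2.

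Among 37 tested actin and adhesion genes, 20 were lower with plus2 (54.1%, against 20.9% of all genes) and 6 higher (16.2%, against 17.8%), with a median of -0.17. After MSN, the strongest were talin, TLN1, which links integrins to actin (2.0-fold lower), MICAL2, an enzyme that oxidises actin (-0.76 ± 0.04), and the calponin CNN2 (-0.68 ± 0.04). TLN1 had 10.88, 10.78 and 10.89 with plus2, against 11.88, 11.74 and 11.91 with minus2.

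Of 23 tested genes of epithelial junctions and keratins, 8 were higher (34.8%, against 17.8% of all genes) and 3 lower (13%, against 20.9%). The 47.8% called in this list (median signal 9.19 with plus2) is below the 57.3% of the brightest group of genes. The median of 0.08 was 0.04 without plus2 replicate 3 and 0.05 without minus2 replicate 3. The tight junction gene CLDN1 had 8.23, 7.77 and 8.03 with plus2, against 6.84, 6.79 and 6.75 with minus2, and 5.96 in control. E-cadherin, CDH1, which MDA-MB-231 cells are known to lack, had 6.10, 5.92 and 6.15 with plus2, against 4.88, 5.03 and 4.96 with minus2, and 4.92 in control. Its minus2 and control signals were near the limit for testing. The differences of CLDN1 and CDH1 were 1.22 ± 0.09 and 1.10 ± 0.08. TJP1, a tight junction scaffold, was higher by 0.64 ± 0.04 and the desmosomal cadherin DSG2 by 0.48 ± 0.05. The lower members were the keratin KRT18 and the plakophilins PKP2 and PKP4, at -0.20 to -0.24, and PKP2 lost its call without minus2 replicate 1, minus2 replicate 3 or plus2 replicate 2. The epithelial adhesion molecule EPCAM was not called (-0.03 ± 0.07).

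Mesenchymal genes had 2 higher (15.4%) and 6 lower (46.2%) of 13, beside 17.8% and 20.9% of all genes. Their median was -0.11, and -0.17 without minus2 replicate 3. The number higher was 1 when any single array of either isomiR was left out, as MMP14 then lost its call. Integrin alpha-5, ITGA5, differed by -0.67 ± 0.08, tenascin, TNC, by -0.45 ± 0.04 and the transcription factor ZEB1 by -0.33 ± 0.04. Fibronectin, FN1, was higher by 0.51 ± 0.06 and the membrane protease MMP14 by 0.15 ± 0.05. Of 22 matrix genes and their enzymes, 6 were higher and 4 lower with plus2 (45.5% called, against 38.7% of all genes). This list is bright, with a median signal of 9.68 with plus2, and its share is below the 57.3% of the brightest group of genes. The 6 higher became 2 without minus2 replicate 2 or plus2 replicate 3, and 3 without plus2 replicate 1. The lysyl hydroxylases PLOD2 and PLOD1 differed by -0.59 ± 0.07 and -0.40 ± 0.04, the collagen gene COL12A1 by 0.49 ± 0.06 and thrombospondin, THBS1, by 0.36 ± 0.09. The laminin gene LAMB1 (-0.29 ± 0.04) and the crosslinking enzyme LOX (-0.28 ± 0.08) were the other lower members.

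Of 17 tested genes of the signal recognition particle and the translocon, which deliver secretory proteins into the endoplasmic reticulum, 12 were lower (70.6%, against 20.9% of all genes) and 2 higher (11.8%, against 17.8%) with plus2. The median was -0.22. Apart from SRPRA, whose difference was -2.11 ± 0.04, the values were small. The receptor's beta subunit SRPRB had -0.56 ± 0.05, the particle subunit SRP72 -0.51 ± 0.05 and the translocon-associated SSR3 -0.39 ± 0.04. The higher pair were TRAM1 (0.18 ± 0.05) and SRP68 (0.16 ± 0.05), and SRP68 lost its call without minus2 replicate 1, minus2 replicate 3 or plus2 replicate 1.

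In the vesicle fusion machinery 7 of 27 genes were higher (25.9%) and 6 lower (22.2%), beside 17.8% and 20.9% of all genes. The 48.1% called in this list (median signal 9.63 with plus2) is below the 57.3% of the brightest group of genes. NAPG, an adaptor that helps to take SNARE complexes apart, had 11.18, 11.19 and 11.28 with plus2, against 9.86, 9.86 and 9.87 with minus2, a difference of 1.35 ± 0.05. It lay opposite to VAMP3 and to the SNAREs SNAP29 (-0.72 ± 0.06) and VAMP8 (-0.60 ± 0.07). Of 27 autophagy and lysosome genes, 7 were higher (25.9%) and 10 lower (37%). The 63% called in this bright list (median signal 10.85 with plus2) is near the 57.3% of the brightest group of genes. EI24, an autophagy protein of the endoplasmic reticulum, had 10.93, 10.94 and 10.70 with plus2, against 12.01, 12.10 and 12.02 with minus2, and 12.89 in control, and so was below control in both. The lysosomal membrane gene LAPTM4A differed by -0.84 ± 0.05 and LAMP1 by 0.70 ± 0.07.

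Genes of the unfolded protein and integrated stress responses had 6 higher (26.1%) and 5 lower (21.7%) of 23, beside 17.8% and 20.9% of all genes. The 47.8% called in this list (median signal 9.67 with plus2) is below the 57.3% of the brightest group of genes. The 6 higher became 3 without minus2 replicate 1, minus2 replicate 2 or plus2 replicate 1, and 2 without minus2 replicate 3. EDEM1, which sorts misfolded glycoproteins for disposal, differed by -0.95 ± 0.06 and the chaperone partner DNAJC3 by -0.90 ± 0.05. The pseudokinase TRIB3 differed by -0.71 ± 0.06, and the stress sensor ERN1 by -0.70 ± 0.08. Calnexin, CANX, was the other lower member (-0.20 ± 0.04).

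Cell cycle genes were counted in lists by phase. Of 33 tested genes of G1/S and DNA replication, 19 were lower (57.6%, against 20.9% of all genes) and 5 higher (15.2%, against 17.8%) with plus2, with a median of -0.25. PCLAF, a partner of the replication clamp, had 9.37, 9.21 and 8.94 with plus2, against 10.26, 10.49 and 10.34 with minus2, a difference of -1.19 ± 0.11. The phosphatase CDC25A (-0.61 ± 0.12) and the pocket protein RBL1 (-0.55 ± 0.10) were lower as well. The higher members were CCNE2, RBL2, CCND3, TYMS and CCNE1, at 0.25 to 0.59. Their number became 2 without minus2 replicate 1 and 3 without plus2 replicate 1 or plus2 replicate 2, and the cyclin genes CCNE1 and CCNE2 (0.59 ± 0.17) were among the calls lost in each of these. TYMS lost its call without minus2 replicate 1, and CCNE1 also without minus2 replicate 3.

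Of 31 tested genes of G2/M and mitosis, 13 were higher (41.9%, against 17.8% of all genes) and 4 lower (12.9%, against 20.9%). The 54.8% called in this bright list (median signal 11.37 with plus2) is near the 57.3% of the brightest group of genes. The median was 0.11, and 0.06 without plus2 replicate 2. KIF23, a kinesin of the dividing cell's midzone, had 13.40, 13.48 and 13.11 with plus2, against 12.28, 12.37 and 12.34 with minus2. It was higher by 1.00 ± 0.08, and HMMR, a spindle protein, by 0.68 ± 0.09. The mitotic activators CDC25B (-0.69 ± 0.05) and PLK1 (-0.57 ± 0.07) were lower, as were AURKB (-0.33 ± 0.05) and CDC20 (-0.24 ± 0.05). In bulk RNA of a culture, the share of cells in a phase and the level per cell cannot be told apart.

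Of 17 tested p53 target genes, 7 were higher (41.2%) and 4 lower (23.5%), beside 17.8% and 20.9% of all genes. The ribonucleotide reductase subunit RRM2B had 9.80, 9.79 and 9.69 with plus2, against 8.63, 8.54 and 8.52 with minus2, and GADD45A, a growth arrest gene, was higher by 0.84 ± 0.06. The repair gene DDB2 was higher by 0.44 ± 0.05, and MDM2, which directs the destruction of p53, differed by -0.40 ± 0.06. The other lower members were TIGAR, ZMAT3 and BAX, at -0.34 to -0.36. MDA-MB-231 cells carry a mutant p53. Of 19 apoptosis regulators, 2 were higher (10.5%) and 7 lower (36.8%). Besides TMBIM6, the pro-apoptotic PMAIP1 (-0.66 ± 0.09) and BAK1 (-0.63 ± 0.10) were lower and the pro-apoptotic BID and BMF were higher by 0.42 ± 0.06 and 0.28 ± 0.07. The 7 lower became 4 without minus2 replicate 2, minus2 replicate 3 or plus2 replicate 2, and the 2 higher became 4 without plus2 replicate 3.

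Interferon response genes, which are distinct from the NF-kB list, had 6 of 26 higher and 6 lower (23.1% each), beside 17.8% and 20.9% of all genes. The RNA helicase DDX60 had 10.74, 10.65 and 10.81 with plus2, against 9.58, 9.47 and 9.58 with minus2. IFIT1 and IFIT3, which bind foreign RNA, were higher by 0.71 ± 0.11 and 0.66 ± 0.07, and IFI35 differed by -0.84 ± 0.07.

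Metabolic genes were counted in 2 lists. Of 16 cholesterol synthesis genes, 2 were higher and none lower, a share of 12.5% called against 38.7% of all genes, although 6 were higher without plus2 replicate 2 and 1 was lower without minus2 replicate 3 or plus2 replicate 3. The called pair were HMGCS1 (0.55 ± 0.10) and IDI1 (0.37 ± 0.07), both enzymes of the mevalonate route. Of 32 hypoxia and glycolysis genes, 7 were higher (21.9%) and 9 lower (28.1%), beside 17.8% and 20.9% of all genes, and the 9 became 5 without minus2 replicate 1, minus2 replicate 3 or plus2 replicate 2. This list is bright, with a median signal of 10.78 with plus2, and its 50% called is below the 57.3% of the brightest group of genes. The aldolase ALDOC was higher by 0.74 ± 0.07, the collagen hydroxylase P4HA2 by 0.43 ± 0.05 and the stress gene NDRG1 by 0.41 ± 0.05. The carbonic anhydrase CA12 was called at 0.37 ± 0.11, was 0.23 without plus2 replicate 3 and lost its call without minus2 replicate 2.

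Of 17 circadian clock genes, 9 were higher (52.9%, against 17.8% of all genes) and 1 lower (5.88%, against 20.9%) with plus2, with a median of 0.18. The repressors BHLHE41 (0.65 ± 0.05), NFIL3 (0.51 ± 0.08) and BHLHE40 (0.42 ± 0.11) and the activator DBP (0.48 ± 0.12) were higher. The lower member was the clock kinase CSNK1E (-0.17 ± 0.05), whose call was lost without minus2 replicate 1, plus2 replicate 1 or plus2 replicate 2.

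Of 10 genes of the microRNA pathway itself, 7 were lower (70%, against 20.9% of all genes) and none higher with plus2, with a median of -0.25. The exporter XPO5 (-0.44 ± 0.06), the nuclear enzyme DROSHA (-0.40 ± 0.05), the cytoplasmic enzyme DICER1 (-0.32 ± 0.05) and the silencing scaffold TNRC6C (-0.30 ± 0.06) were lower. The Argonaute genes AGO1, AGO2, AGO3 and AGO4 had no feature with a single symbol and were not tested.

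Of 17 cytosolic ribosomal protein genes with a feature of their own, 14 were lower (82.4%, against 20.9% of all genes) and none higher, with a median of -0.19. RPL10A (-0.36 ± 0.05), RPS6 (-0.31 ± 0.04) and RPL8 (-0.26 ± 0.05) were among them. The differences were small, and without plus2 replicate 1 only 9 were lower. RPS18 was the largest at -0.45 ± 0.14 (12.11, 12.56 and 12.72 with plus2, against 12.94, 12.98 and 12.82 with minus2). It was -0.28 without plus2 replicate 1 and was then not called, nor was it without minus2 replicate 1 or minus2 replicate 2. Ribosomal protein genes have many near-identical copies, so their signals may be shared.

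Among 11 tested markers of the labelled line, 2 were higher and 4 lower with plus2. That is 54.5% called, beside 38.7% of all genes and 57.3% of the brightest group of genes. In marker lists of other cell types, the share called was 40% of 5 tested luminal genes, 30% of 10 white blood cell genes and 33.3% of 3 fibroblast genes, beside 38.7% of all genes. The luminal genes MUC1 (0.42 ± 0.06) and GATA3 (0.20 ± 0.05) were higher with plus2. Of the white blood cell genes, LAPTM5 was higher by 0.48 ± 0.08, with a plus2 mean of 13.20 and a minus2 mean of 12.71, and LCP1 (-0.78 ± 0.09) was lower. CD68 was called at -0.24 ± 0.08 and lost that call without minus2 replicate 1, minus2 replicate 3, plus2 replicate 1 or plus2 replicate 2. The fibroblast gene PDGFRB was higher by 0.29 ± 0.04 at a minus2 signal of 5.17.

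**Figure D4:**
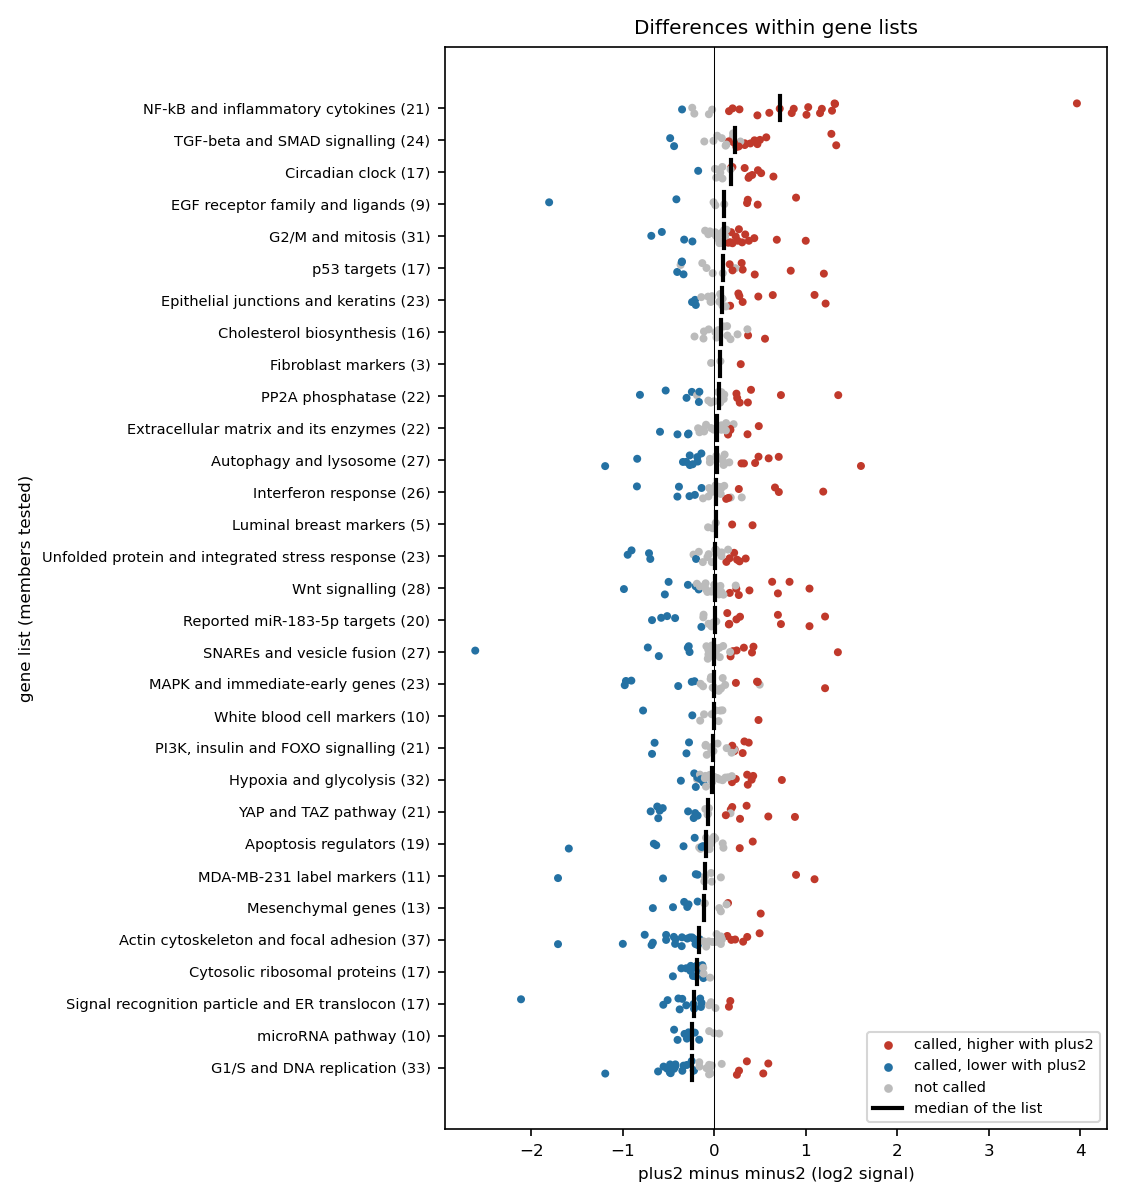
Each point is a tested gene of the list named at the left (with its number tested), placed by its difference plus2 minus minus2 in log2 signal; red and blue were called higher and lower with plus2, grey were not called, and black bars are list medians. The NF-kB and cytokine list has the highest median, 0.72, and the G1/S and microRNA pathway lists lie at the other end with -0.25, while most lists have points on both sides of 0.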

How the data were processed

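The authors deposited 1 table of log2 signals for 12 Affymetrix arrays. The submitters' processing notes name Affymetrix Expression Console 1.4.1 and RMA, without settings, and the sources used here do not give the genome build. That the deposited values are on a log2 scale was inferred from their range, between 1.79 and 19.9. RMA makes the distributions of arrays alike, which hides any difference in RNA content of the cells.

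Of 67528 transcript clusters, 23781 had 1 gene symbol in the platform annotation, 1543 had several and 42204 none. Of 22411 genes, 22407 were found in RefSeq. The cluster with the highest mean was used for each gene, and the lowest 33.3% of genes by mean signal were left out (limit 4.54), which left 14940. A model with a mean for each of the 4 groups was fitted to the 12 arrays (limma 3.58.1, R 4.3.3, 8 residual degrees of freedom), and plus2 minus minus2 was tested with Benjamini-Hochberg adjustment. "Higher" and "lower" gene counts, and "called", refer to an adjusted p below 0.05, and errors of differences are standard errors. The fit was tested on simulated data. With 3 arrays in each group, the smallest p of an exact permutation test is 0.1, so none was used.

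The comparison and the gene lists were chosen with earlier results of these data known. Named genes are the 15 largest called differences in each direction whose arrays do not overlap, passing over small RNAs, pseudogenes, antisense and uncharacterised loci, and up to 4 called members of each list. All members of the NF-kB, reported target and marker lists could be named, and members behind counts of 5 or fewer were named after their values were seen. Lists are described by counts and medians, without a test of the list.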

Additional observations from a re-analysis of the deposited data

How the results depend on the processing

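The number of genes called lay between 4940 and 6013 over 15 alternatives (the 6 arrays alone, array centring, quantile normalisation, 2 other signal limits, averaged clusters, trended and robust variance, array weights, the replicate number as a block, and each array left out), beside 5787. Leaving out 1 array gave 4940 to 5524 genes called, and 925 to 1004 at least 1.5-fold. The replicate block gave 6013 called genes, 963 of them at least 1.5-fold. Deviations of same-numbered plus2 and minus2 arrays from their group means correlated at 0.097, 0.169 and 0.061, and those of differently numbered arrays at -0.135 to 0.033. The former were not all over 0.1, so the main fit did not pair the arrays by number. Each array still correlated best with its own number, so an effect shared by same-numbered arrays may be present, which the main fit leaves in the spread. The share of calls that were higher with plus2 was 45.9%, against 49.8% after centring and 50.6% after quantile normalisation. Of 3266 values of 219 single genes under these alternatives, 3176 kept their side of the threshold, 84 lost a call (18 genes, CA12, CCNE1, CCNE2, CD68, CSNK1E, IDH2, IRS2, MMP14, PFN2, PKP2, RELB, SMAD4, SPRY2, SRP68, TYMS, BNIP3L, IL1A and RPS18) and 6 gained one (CSF3, IL11 and VIM). None turned direction where the main or the alternative value was called. Turns among values not called in either were not counted. All 449 values of the 30 genes with the largest differences stayed called. With 3 arrays a group, small differences at low signal are the least certain, and plus2 replicate 3 had the lowest array weight, 0.377.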

Other observations

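Small nucleolar RNAs, which guide the chemical modification of ribosomal RNA, were a class noticed after the values were seen. Of 160 tested, 44 were lower and 4 higher with plus2 (30% called, against 38.7% of all genes), and the median difference was -0.20, beside -0.01 for all genes. Of all genes, 20.9% were lower and 17.8% higher. SNORD75 had 8.28, 8.18 and 8.07 with plus2, against 9.15, 9.24 and 9.17 with minus2, a difference of -1.01 ± 0.13. SNORD51 (-0.95 ± 0.11), SNORD78 (-0.93 ± 0.16), SNORD104 (-0.80 ± 0.11) and SNORA24 (-0.75 ± 0.08) followed. The count of lower members was 34 to 64 under the alternatives run, with 64 without plus2 replicate 3. Many lie in introns of host genes, and how the array tells the 2 apart was not tested.

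Close relatives sometimes differed in opposite directions, as seen in a few pairs singled out after their values were seen. GNAQ had 9.91, 9.97 and 9.85 with plus2, against 8.48, 8.52 and 8.60 with minus2 (1.38 ± 0.05), while GNA11, which encodes another G protein subunit of that family, had 9.89, 9.67 and 9.57 with plus2, against 11.29, 11.26 and 11.39 with minus2. The phosphatase gene PTP4A1 differed by 1.86 ± 0.07, PTP4A2 by -1.03 ± 0.04 and PTP4A3 by 0.10 ± 0.08, which was not called (adjusted p = 0.37, limma). Of the pocket proteins that restrain E2F factors, RBL1 differed by -0.55 ± 0.10 and RBL2 by 0.54 ± 0.06.

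Among long non-coding RNA genes, 70 of 786 were higher and 46 lower (14.8% called, against 38.7% of all genes). Over all 36845 transcript clusters above the signal limit, named or not, which is a setting chosen after seeing the data, 3501 were higher and 4127 lower with plus2.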
